A study of Mus musculus with 2 samples.

Results

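The nuclear genes of oxidative phosphorylation were followed through 5 classes of mouse epidermal cells. Members were the symbols beginning with Ndufa, Ndufb, Ndufc, Ndufs, Ndufv, Uqcr or Atp5, the nuclear Cox subunit symbols with a, b or c after the number, and Sdha, Sdhb, Sdhc and Sdhd. They also needed at least 50 unique molecular identifiers (UMIs, 1 per captured mRNA molecule) over both libraries. Of 92 symbols that matched, 88 were members, out of 14912 genes at that depth. They comprised 37 genes named for complex I subunits, of which Ndufb1-ps is annotated as a non-coding RNA, all 4 of complex II, 8 of complex III, 14 of complex IV, 17 of complex V and 8 complex I assembly factors of the Ndufaf series. Cox6a2, Cox8b, Cox8c and Cox7b2 had 10 UMIs or fewer and were left out. Cox7a1, with 148 UMIs, was the only member below 200.

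Oxidative phosphorylation takes place in the inner mitochondrial membrane. Complex I takes electrons from NADH and complex II from succinate, ubiquinone carries them to complex III, cytochrome c carries them to complex IV, and complex IV passes them to oxygen. The proton gradient built by complexes I, III and IV drives ATP synthase, complex V. A small set of subunits is encoded by mitochondrial DNA and the rest by nuclear genes, so each complex except complex II draws on both genomes. In skin, sebocytes fill with lipid and burst to release sebum, whereas interfollicular keratinocytes lose their organelles as they cornify.

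The cells came from skin epidermis of mice in which an involucrin-promoter CreER switches on SmoM2, a constitutively active Smoothened fused to YFP that drives hedgehog signalling. Both libraries carry this Involucrin-CREER/Rosa-SmoM2 genotype. The Survivin GOF library adds Krt14rtTA and a Survivin transgene, so that cells using the keratin 14 promoter overexpress Survivin (Birc5), a mitotic and apoptosis regulator. Cells sorted as α6High/CD34-/YFP+ were run on 10x Chromium 3′ channels. Age, sex, number of mice, and the dose and timing of inducing agents were not given in the sources used here. There was 1 library per genotype, called control and GOF below, so no difference could be tested. Every interval is an exact 95% interval, Poisson for a level, conditional binomial for a ratio and Clopper-Pearson for a share, and covers counting error only.

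After filtering, 10293 control and 6494 GOF cells remained, with medians of 7648 and 12324 UMIs per cell, and 20 kept barcodes occurred in both libraries. Levels are given as CPM, a gene's UMIs per 1000000 UMIs of the class. Birc5 stood at 55.4 CPM in keratinocytes of the control library and at 793 in those of the other. Clusters were given class names from marker genes, each name meaning cells like that type, by a rule chosen after the clusters had been seen. The sebaceous markers summed to 24996 and 16391 CPM in sebaceous cells of the control and GOF libraries, against 542 and 207 in basal cells. Krt36, a tail-scale keratin, reached 41434 and 37006 CPM in scale cells, and Krt10, the early differentiation keratin, 34367 and 30210 CPM in suprabasal cells. Gli1, a direct hedgehog target, stood at 75.5 and 73.4 CPM in hedgehog-high cells. Markers at least 2-fold above the other cells numbered 14 of 16 in the suprabasal cluster and 6 of 11 in the scale cluster. The scale cluster also had 8 suprabasal markers up. Padi1 had 0 UMIs there in both libraries, and Krt31 in the GOF library. The hedgehog-high clusters had 8 and 11 of 14 markers up, and the basal clusters 6 and 5 of 17. The basal list summed to 49786 and 50636 CPM in basal cells. Basal cells of the libraries lay in different clusters, 1532 of 1566 control cells in a first and 1618 of 1665 GOF cells in another, so a difference between libraries in basal cells cannot be told apart from that split. YFP mRNA gave 32.4 and 30.4 CPM in hedgehog-high cells but 3.41 and 1.17 in basal cells and 1.54 and 0.513 in sebaceous cells. By UMIs of Xist and of Y-linked genes, 7376 control cells were called male and 30 female, against 1806 and 3615 GOF cells.

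Sebaceous cells stood apart from the other 4 classes in every complex. The 88 members together took 22676 CPM of basal control cells and 23473 of basal GOF cells, and 49790 and 43190 CPM of sebaceous cells. The sebaceous to basal ratio of these sums was 2.20 (2.18 to 2.21) in the control library and 1.84 (1.83 to 1.85) in the GOF library. Suprabasal cells held 19894 and 19033 CPM, scale cells 19461 and 19012 CPM, and hedgehog-high cells 22006 and 21353 CPM. The sebaceous class rested on 309 control and 229 GOF cells, which were also the deepest, with medians of 16446 and 22802 UMIs per cell. With every cell thinned to 3000 UMIs, the median cell gave 5.10% and 4.27% of its UMIs to these genes in sebaceous cells and 2.27% and 2.33% in basal cells. Before thinning the medians were 5.09% and 4.33% against 2.25% and 2.34%. Of the thinned sebaceous cells, 96.8% of control and 86.0% of GOF cells lay above the 95th percentile of basal cells.

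**Figure D1:**
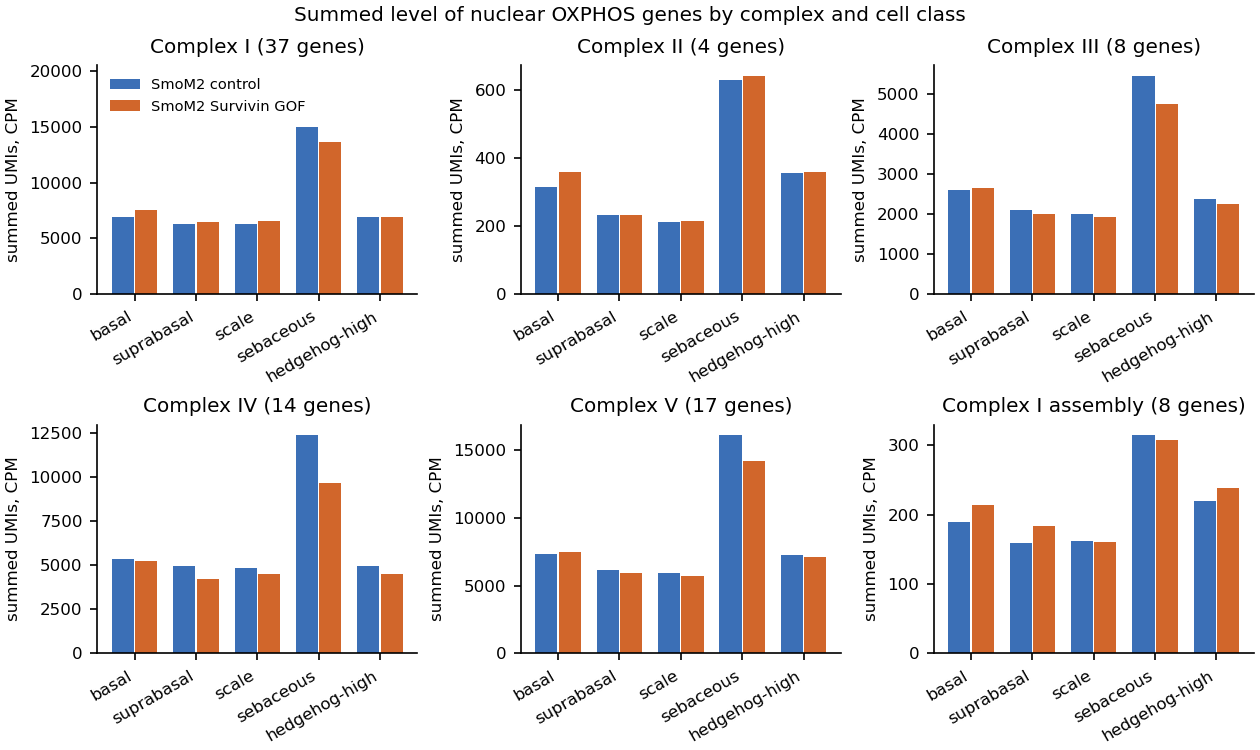
Summed CPM of the members of each complex (y axis, linear from 0, its own scale in each panel) in the 5 classes (x axis), with a bar for each library. In all 6 panels the sebaceous bars are the highest, and the suprabasal and scale bars are below the basal bars of the same library.

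Counting a member as higher or lower where its CPM was at least 5 to 4, or at most 4 to 5, of the basal CPM in both libraries, 78 of 86 measured members were higher in sebaceous cells and 1 was lower. Among all 10313 genes measured in this comparison 21.7% were higher and 31.4% lower. The median member differed from basal cells by 1.15 on the log2 scale in the control library and 0.88 in the GOF library, and the median of all genes by -0.26 and -0.06. Excluding Cox7a1, the quartiles of member ratios ran from 1.81 to 2.54 in the control library and from 1.53 to 2.21 in the GOF library. In complex I 36 of 37 members were higher, in complex II 4 of 4, in complex III 7 of 8, in complex IV 10 of 12, in complex V 16 of 17 and among the assembly factors 5 of 8. The sebaceous to basal ratio of the summed subunits was 2.17 and 1.81 for complex I, 2.01 and 1.78 for complex II, 2.10 and 1.80 for complex III, 2.30 and 1.85 for complex IV and 2.20 and 1.90 for complex V. For the Ndufaf assembly factors it was 1.65 and 1.44. Of the fat cell markers, Adipoq and Ucp1 had 0 UMIs in both libraries of this class and of each other class. The 6-gene fat list summed to 6.56 and 6.504 CPM in sebaceous cells, with 3 genes detected, against 0.262 and 0.196 in basal cells. The 7-gene muscle list summed to 0.772 and 0.171 CPM in sebaceous cells with 1 gene detected. The cycling list summed to 186 and 463 CPM in sebaceous cells against 143 and 145 in basal cells.

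Among complex I subunits the largest ratio belonged to Ndufab1, the mitochondrial acyl carrier protein, which is a subunit of the complex and also the carrier of mitochondrial fatty acid synthesis. It measured 170 CPM in control basal cells and 198 in GOF basal cells, and 710 and 686 CPM in sebaceous cells, ratios of 4.19 (3.96 to 4.42) and 3.46 (3.31 to 3.61). Its levels in suprabasal, scale and hedgehog-high cells, 152 to 195 CPM, lay near or below the basal ones. Ndufs7, which holds the last iron-sulfur cluster before ubiquinone, went from 152 and 172 CPM in basal cells to 502 and 483 in sebaceous cells. Ndufv1, the subunit that binds NADH, went from 108 and 129 CPM to 363 and 339. The only complex I subunit not counted as higher was Ndufa6, at 310 and 347 CPM in basal cells and 391 and 419 in sebaceous cells, ratios of 1.26 and 1.21.

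In complex II, Sdha, the flavoprotein that oxidises succinate, measured 72.9 and 71.6 CPM in basal cells and 160 and 161 in sebaceous cells. Sdhb, its iron-sulfur partner, measured 92.996 and 125 CPM in basal cells and 241 and 220 in sebaceous cells. The membrane anchors showed smaller ratios, 1.91 and 1.73 for Sdhc and 1.253 and 1.49 for Sdhd. In complex III, Uqcrq, a small subunit known as the ubiquinone-binding protein, went from 282 and 346 CPM to 1013 and 871, and Uqcrc2, a core protein, from 141 and 133 CPM to 411 and 332. Its partner core protein Uqcrc1 did not follow, at 419 and 408 CPM in basal cells and 492 and 412 in sebaceous cells, ratios of 1.17 (1.12 to 1.23) and 1.01 (0.963 to 1.06).

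In complex IV, Cox7b, a small subunit encoded on the X chromosome, had the highest ratio in the control library of the 87 members with at least 200 UMIs. It measured 504 CPM in control and 321 in GOF basal cells, and 2488 and 1058 CPM in sebaceous cells, ratios of 4.93 (4.78 to 5.09) and 3.29 (3.18 to 3.41). Its level in each GOF class was below that in the same control class, a point taken up with the comparison of libraries. Cox7c went from 450 and 443 CPM to 1274 and 1110, and Cox8a from 572 and 608 CPM to 1566 and 1418. Cox7a2l, which is known for its part in assembling respiratory supercomplexes, was level at 420 and 382 CPM in basal and 415 and 409 CPM in sebaceous cells.

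In complex V, Atp5b, the catalytic beta subunit, measured 623 and 645 CPM in basal cells and 1768 and 1532 in sebaceous cells. Atp5o, the stalk subunit that confers oligomycin sensitivity, went from 364 and 373 CPM to 1075 and 871, and Atp5md, a small membrane subunit, from 185 and 217 CPM to 547 and 498. Atp5g2 was the single complex V member not counted, with a ratio of 1.10 in each library. Among assembly factors Ndufaf3 went from 19.6 and 20.3 CPM to 56.8 and 45.7, whereas Ndufaf2 stayed at 29.1 and 36.0 CPM in basal and 32.8 and 37.5 in sebaceous cells. Ndufaf5 and Ndufaf8 also missed the 5 to 4 mark in the GOF library. The sebaceous class joined 2 clusters, and the level differed between them within each library. The larger, which expressed all 14 sebaceous markers above 2-fold and led with Fa2h, Scd3 and Elovl3, held 51572 and 49299 CPM. The other, with 11 of 14 markers up and Akr1c18 and Oxtr among its leading genes, held 37916 and 37080 CPM.

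**Figure D2:**
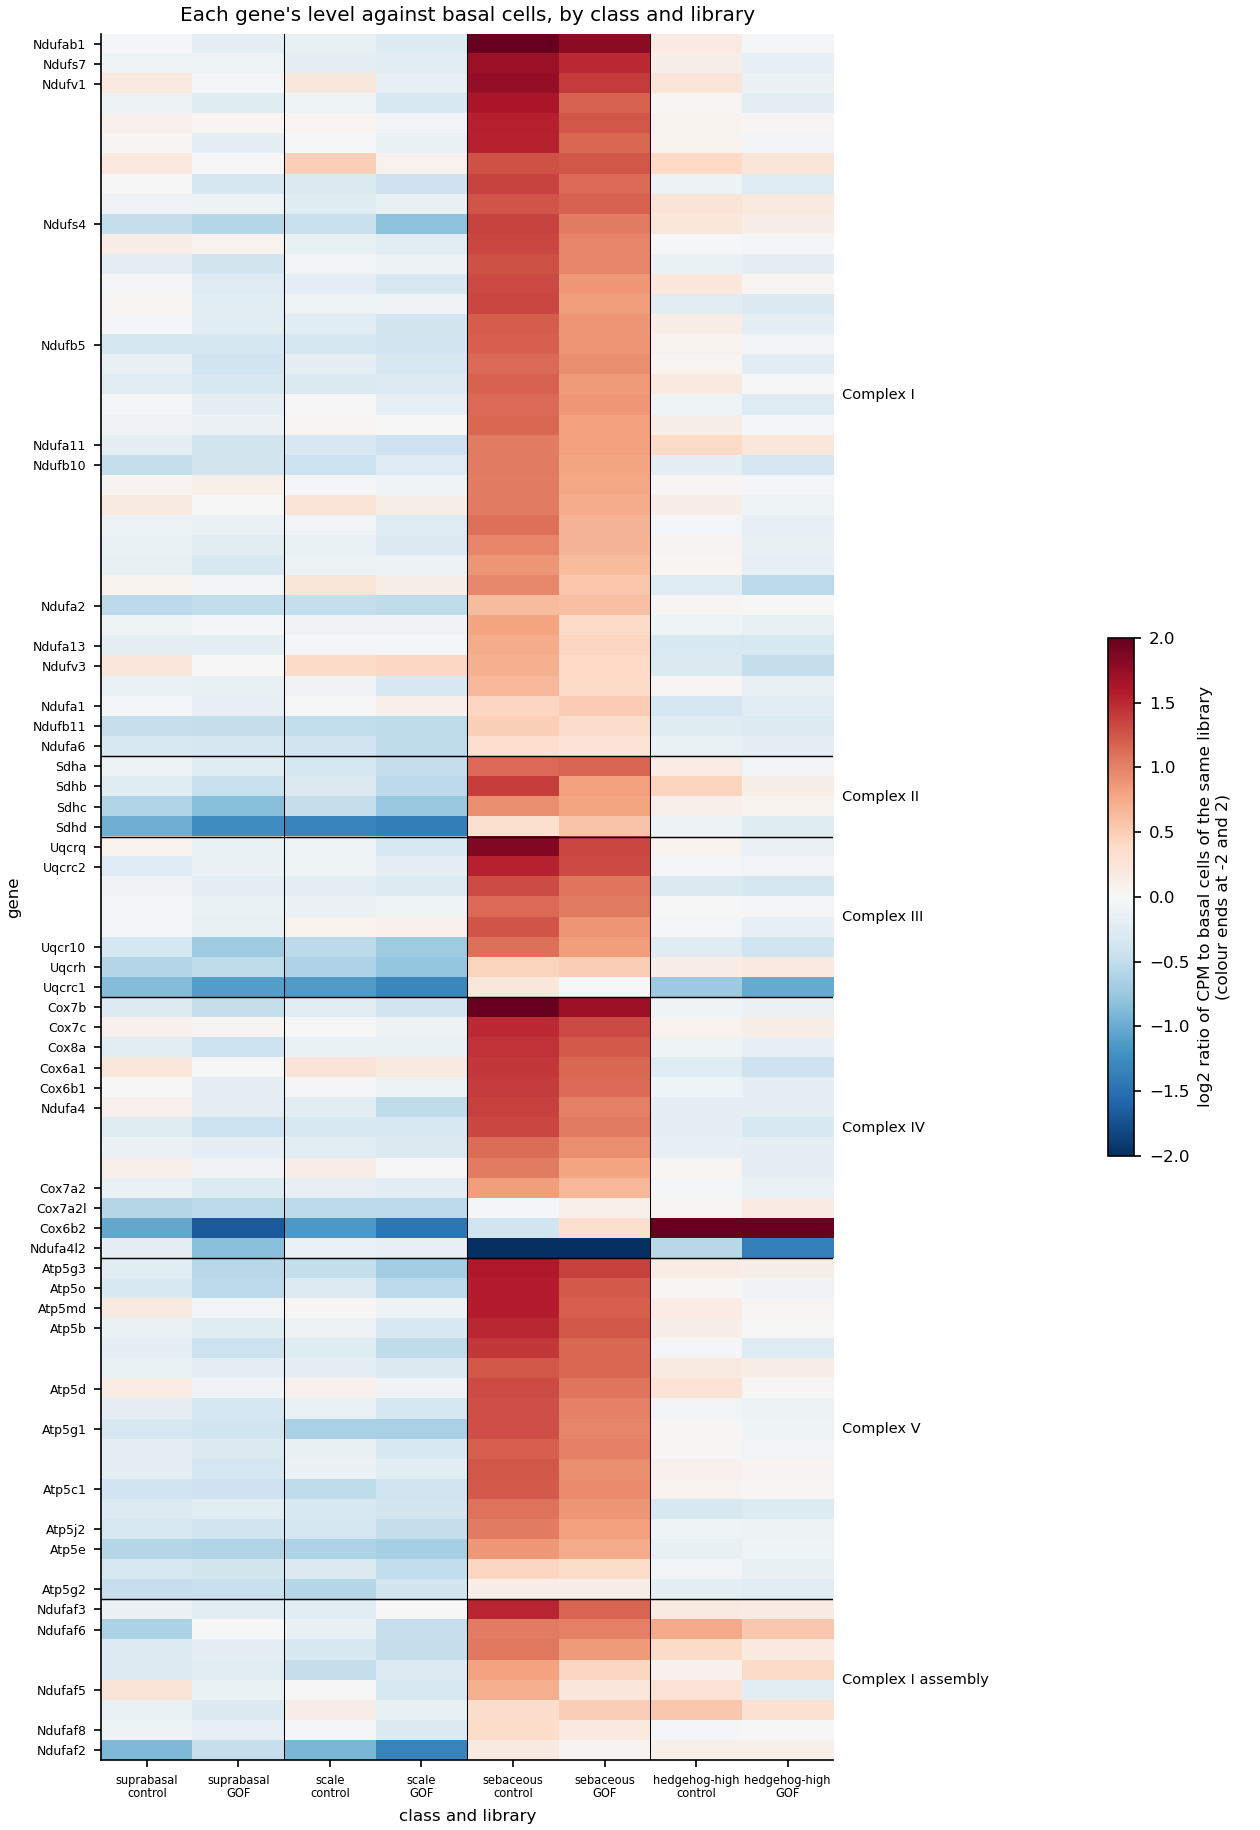
Heat map of the log2 ratio of CPM to basal cells of the same library (colour) for 86 of the 87 members with at least 200 UMIs (rows, grouped by complex and ordered by the sebaceous ratio, with the genes named in the text labelled) in 4 classes and 2 libraries (columns). The sebaceous columns are red for all but a few rows, where Ndufa4l2 is dark blue, and Cox6b2 is the dark red row of the hedgehog-high columns.

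The 13 mitochondrially encoded subunits were also higher in sebaceous cells, but less so than the nuclear ones, and they followed another order across classes. Their sum was 49910 and 42719 CPM in basal cells, 77367 and 63216 in sebaceous cells, 60478 and 48843 in suprabasal cells, 59622 and 47373 in scale cells and 50558 and 42450 in hedgehog-high cells. From basal to sebaceous cells the sum changed by 1.55 and 1.48, with 11 of 13 genes higher, beside 21.7% of all genes. Mitochondrially encoded UMIs per nuclear member UMI numbered 2.20 and 1.82 in basal cells, 3.04 and 2.57 in suprabasal, 3.06 and 2.49 in scale, 2.30 and 1.99 in hedgehog-high and 1.55 and 1.46 in sebaceous cells. Sebaceous cells thus had the lowest ratio of mitochondrial to nuclear transcripts of the 5 classes in both libraries, and suprabasal and scale cells the highest. The cell filter removed cells above 10% mitochondrial UMIs and so bears on these ratios. Cells with 10% to 20% would have made up 41.4% and 36.4% of suprabasal, 42.4% and 44.0% of scale, 26.4% and 4.98% of sebaceous, 12.95% and 8.52% of basal, and 12.4% and 6.42% of hedgehog-high cells.

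**Figure D3:**
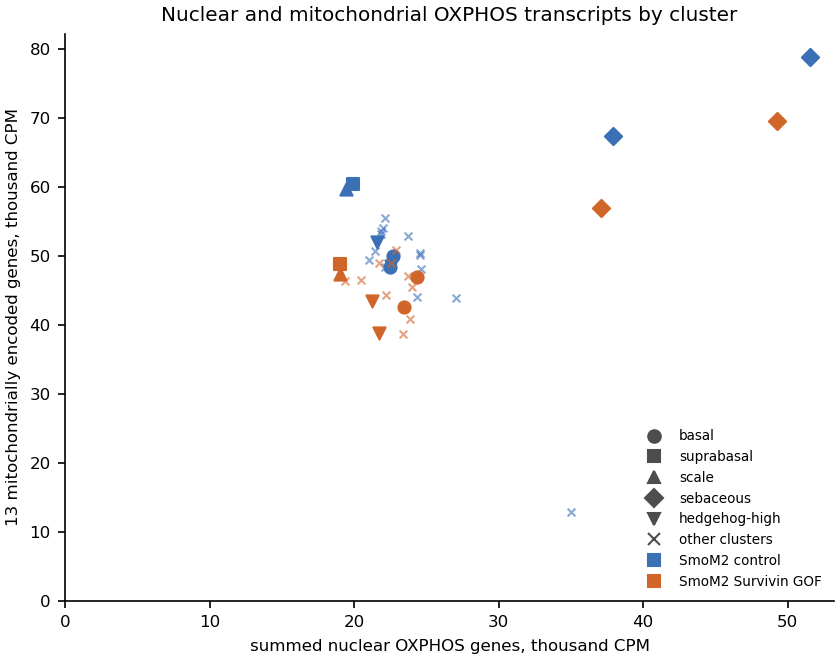
Summed CPM of the 13 mitochondrially encoded subunits (y axis) against the summed CPM of the 88 nuclear members (x axis, both linear), with a point for each cluster and library, coloured by library and shaped by class. The 4 sebaceous points lie far to the right, and a single control cluster, at 34973 nuclear and 12810 mitochondrial CPM, lies far below all others.

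Genes that feed or build the chain were higher in sebaceous cells to different extents. Among subunits of the chain that the symbol rule misses, 3 of 3 measured were higher: cytochrome c1 (Cyc1) went from 106 and 125 CPM in basal cells to 541 and 479, cytochrome c (Cycs) from 75.9 and 88.1 to 248 and 208, and Cox4i1 from 1475 and 1425 to 2580 and 2399. In the list of ubiquinone synthesis genes 11 of 13 were higher and Coq8a was lower, and their sum changed by 4.48 and 3.58. All 15 genes of mitochondrial fatty acid oxidation were higher, with sums changed by 3.44 and 2.85, and 14 of 17 genes of the citrate cycle and pyruvate dehydrogenase, by 2.51 and 2.07. Idh3a and Idh2 were the citrate cycle genes that were lower. Of 11 carriers 8 were higher. Slc25a1, the citrate exporter that supplies carbon for cytosolic fatty acid synthesis, went from 55.8 and 39.4 CPM to 1034 and 443, and the mitochondrial pyruvate carrier subunits Mpc1 and Mpc2 differed 6.06- and 4.39-fold and 11.5- and 7.36-fold. Of the 44 measured assembly factors outside the member list 26 were higher and 1 lower. Of 78 mitochondrial ribosomal proteins 56 were higher, with sums changed by 1.60 and 1.43. Of 86 cytosolic ribosomal proteins 2 were higher and 12 lower, with sums at 0.758 and 0.877 of the basal ones. Beside every list of this paragraph, 21.7% of all genes were higher and 31.4% lower.

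The transcriptional regulators of mitochondrial biogenesis did not move as a block, with 5 of 15 measured higher and 2 lower, where 21.7% and 31.4% of all genes were. Ppargc1a, the best known coactivator of this programme, had at most 0.399 CPM in any of the 5 classes. Its relative Ppargc1b went from 10.5 and 10.0 CPM in basal cells to 25.5 and 32.5 in sebaceous cells. Esrra, the nuclear receptor that both coactivators work through, went from 26.0 and 23.7 to 43.2 and 45.9 CPM. Pparg, the master regulator of sebocytes and one of the genes that named the class, measured 104 and 138 CPM there. Nrf1 was lower, at 17.0 and 18.4 CPM in basal and 11.2 and 11.1 CPM in sebaceous cells. Tfam, which packages and transcribes mitochondrial DNA, measured 38.7 and 43.1 CPM in basal and 47.3 and 61.6 CPM in sebaceous cells.

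Differentiated interfollicular cells held somewhat less of these transcripts than basal cells. The summed level was 0.877 (0.871 to 0.884) and 0.811 (0.805 to 0.817) of the basal one in suprabasal cells and 0.858 (0.851 to 0.865) and 0.810 (0.803 to 0.817) in scale cells. In suprabasal cells 0 of 86 measured members were higher and 16 lower, beside 15.7% and 26.6% of all genes, and in scale cells 1 was higher and 20 lower, beside 15.5% and 29.8%. The members' shares of lower genes were thus below those of all genes in both classes. Every gene with at least 50 UMIs enters the latter shares, whereas only 1 member had under 200 pooled UMIs. The shares were not matched for depth, and few counts alone can carry a gene past the mark. The median member lay at -0.14 and -0.23 on the log2 scale in suprabasal cells, where the median of all genes lay at -0.05 and -0.17, and at -0.17 and -0.29 in scale cells beside -0.08 and -0.24.

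Within this modest shift the complex II sum and single subunits departed furthest. The summed complex II level in suprabasal cells was 0.739 and 0.644 of the basal one, and in scale cells 0.681 and 0.601, whereas complex I kept 0.914 and 0.858, and 0.914 and 0.866. Of the 4 complex II members, only the anchors Sdhc and Sdhd were counted as lower in suprabasal cells, and 3 were in scale cells. Sdhd, the small membrane anchor that helps bind ubiquinone, had the lowest ratios in complex II. It measured 81.6 and 88.5 CPM in basal cells, 41.6 and 37.6 in suprabasal, 32.4 and 33.8 in scale, 76.3 and 75.2 in hedgehog-high and 102 and 131 in sebaceous cells. Its ratio to basal cells was 0.509 (0.438 to 0.590) and 0.425 (0.362 to 0.496) in suprabasal cells and 0.397 (0.325 to 0.482) and 0.382 (0.305 to 0.472) in scale cells. Sdhc, the other anchor, was at 0.657 and 0.554 in suprabasal and 0.722 and 0.591 in scale cells.

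In complex III, Uqcrc1 measured 419 and 408 CPM in basal cells, 229 and 191 in suprabasal cells and 192 and 167 in scale cells, with Uqcrh and Uqcr10 the other complex III members counted as lower in both classes. In complex I the lower members of both classes included Ndufa2, Ndufb5, Ndufb11 and Ndufs4, joined by Ndufb10 in suprabasal and Ndufa6 in scale cells. Ndufs4, an accessory subunit needed for a stable NADH-oxidising module, measured 98.9 and 106 CPM in basal, 71.0 and 71.4 in suprabasal and 72.6 and 60.1 in scale cells. The single member counted as higher was Ndufv3 in scale cells, at 146 and 159 CPM in basal and 191 and 212 CPM in scale cells, ratios of 1.31 (1.20 to 1.43) and 1.33 (1.22 to 1.46). In complex IV Cox7a2l was lower in both classes, at 0.675 and 0.689 in suprabasal and 0.698 and 0.699 in scale cells. In complex V Atp5c1, Atp5e and Atp5g2 were lower in both classes and Atp5g1, Atp5g3 and Atp5j2 in scale cells. The assembly factor Ndufaf2 was at 0.539 and 0.724 of the basal level in suprabasal and 0.529 and 0.396 in scale cells.

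Hedgehog-high cells held close to the basal level of the members as a whole, at 0.970 (0.965 to 0.975) of the basal sum in the control library and 0.910 (0.906 to 0.914) in the GOF library. Of 87 measured members 2 were higher and 2 lower, where 36.7% of all genes were higher and 9.15% lower. The median member lay at 0.03 and -0.09 on the log2 scale while the median of all genes lay at 0.30 and 0.25. With median-of-ratios scaling, which shifts all log2 values by -0.32 and -0.31, 1 member was higher and 35 were lower. The shares of all genes were not computed with that scaling, so these 2 counts cannot be set against the shares above. The fibroblast marker list summed to 1394 and 2422 CPM in this class, with 6 of 7 genes detected in each library, against 141 and 164 in basal cells, and its part in the members' values was not tested. Besides the isoform genes described next, the members counted were Ndufaf6, at 7.33 and 8.75 CPM in basal and 12.4 and 12.8 CPM in hedgehog-high cells, and Uqcrc1, at 254 and 204 CPM in hedgehog-high cells, 0.606 (0.580 to 0.632) and 0.4996 (0.480 to 0.520) of the basal level.

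Several subunits exist as alternative isoforms from separate genes, and these departed most from the common pattern. Shares within an isoform set are UMIs of 1 gene over UMIs of the set. They depend on how well each 3′ end was captured, and so are compared between classes rather than read as protein shares. Ndufa4 is a complex IV subunit despite its name, and Ndufa4l2 (GRCm38 chromosome 10, 127514967 to 127517154) is its hypoxia-inducible relative. Ndufa4l2 measured 582 and 568 CPM in basal cells, 513 and 319 in suprabasal, 528 and 508 in scale, 397 and 221 in hedgehog-high and 39.2 and 19.3 in sebaceous cells. Ndufa4 measured 402 and 451 CPM in basal cells and 1037 and 910 in sebaceous cells. Ndufa4l2 therefore made up 59.2% (58.2 to 60.1) and 55.8% (55.1 to 56.5) of the pair in basal cells and 3.64% (3.17 to 4.17) and 2.08% (1.72 to 2.50) in sebaceous cells. It was the only member counted as lower in sebaceous cells, at 0.0674 (0.0583 to 0.0775) and 0.0340 (0.0280 to 0.0409) of the basal level.

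Low Ndufa4l2 levels also occurred outside sebaceous cells. The gene measured 62.5 and 21.5 CPM in the upper follicle cluster, which led with Gata6 and Krt79, 95.3 and 36.1 in a cluster led by Ntrk2 and Adh7, and 70.9 and 29.7 in the cycling cluster that shares those genes. It also split the hedgehog-high class. The cluster led by Dio2, Nptx1 and Pi15 had 738 CPM among control and 630 among GOF cells, and the cluster with Lef1 and Col14a1 among its leading genes had 146 and 108. The class values of 397 and 221 CPM thus join a high and a low cluster, and the former supplied 886 of 1768 control cells but 266 of 1050 GOF cells.

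Cox6b2 (chromosome 7, 4751792 to 4753094), known as the testis isoform of the intermembrane subunit Cox6b, had the highest ratio in hedgehog-high cells of the 87 members with at least 200 UMIs. It measured 3.06 and 2.05 CPM in basal cells, 1.51 and 0.641 in suprabasal, 1.37 and 0.751 in scale, 2.32 and 2.57 in sebaceous and 18.6 and 17.2 in hedgehog-high cells. The hedgehog-high level was 6.09-fold (4.28 to 8.92) the basal one in the control library and 8.36-fold (6.03 to 11.9) in the GOF library, from 280 and 276 UMIs. The share of Cox6b2 in the Cox6b pair was 4.69% (4.17 to 5.26) and 4.67% (4.14 to 5.24) there and 0.753% and 0.509% in basal cells, so Cox6b1, at 378 and 351 CPM, supplied most of the pair in hedgehog-high cells too. Among clusters, the highest Cox6b2 level, 39.4 and 25.01 CPM, was in the cycling cluster with Gli1 at 86.8 and 66.0 CPM. The hedgehog-high clusters had 9.72 and 7.17 CPM and 25.2 and 19.95 CPM. Similar levels occurred outside keratinocytes, at 18.98 and 15.6 CPM in melanocytes, where the share of the pair was 4.31% (2.65 to 6.58) and 3.69% (2.47 to 5.29), and at 29.2 and 8.21 CPM in immune cells, from 16 and 8 UMIs.

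Cox7a1, the heart and skeletal muscle isoform of Cox7a, had its highest level of the 5 classes in sebaceous cells. It gave 54 UMIs in control and 28 in GOF sebaceous cells, 10.4 and 4.79 CPM, beside 1 UMI in basal cells of each library and 0 in scale cells, where the limit of 3 UMIs taken for a count of 0 equals 0.825 and 1.13 CPM. Hedgehog-high cells gave 8 and 4 UMIs. Within sebaceous cells its level was 11.99 and 8.56 CPM in the larger cluster, with 54 and 25 UMIs, and 0 and 1.03 CPM in the smaller, with 0 and 3. Cox7a1 made up 0.902% and 0.442% of the Cox7a set in sebaceous cells, where Cox7a2 made up 63.2% and 61.8% and Cox7a2l 35.9% and 37.7%. The Cox4 set, Cox6a set and Cox8 set were each supplied almost wholly by Cox4i1, Cox6a1 and Cox8a, at 99.8% or more of the set in every class of both libraries. The low-oxygen isoform Cox4i2 had its highest values in sebaceous cells, at 3.47 and 4.96 CPM.

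**Figure D4:**
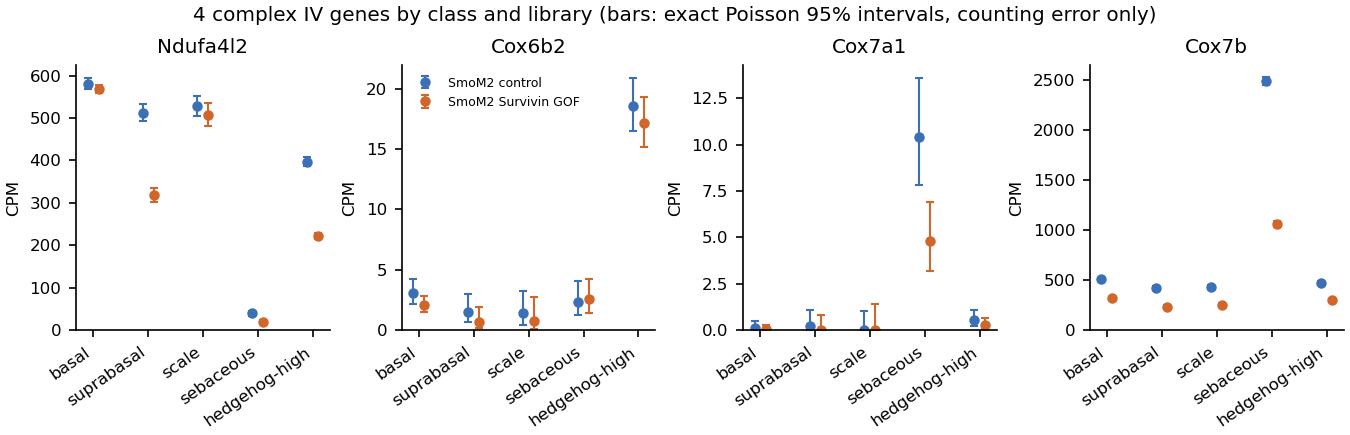
CPM (y axis, linear from 0, its own scale in each panel) of Ndufa4l2, Cox6b2, Cox7a1 and Cox7b in the 5 classes (x axis), a point for each library with its exact Poisson 95% interval. Ndufa4l2 is near 0 in sebaceous cells alone among the 5 classes, Cox6b2 is high in hedgehog-high cells, Cox7a1 in sebaceous cells, and the GOF points of Cox7b lie below the control points in every class.

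Atp5g1, Atp5g2 and Atp5g3 encode the same mature c subunit of the ATP synthase rotor behind different import sequences. In basal cells they gave 35.1%, 48.7% and 16.3% of the set in the control library and 33.5%, 49.0% and 17.5% in the GOF library. In sebaceous cells the shares were 45.3%, 28.4% and 26.3% in the control library and 39.8%, 32.7% and 27.4% in the GOF library. Atp5g2 was thus the most abundant of the 3 in basal cells and ranked below Atp5g1 in sebaceous cells. Atp5g3 measured 259 and 293 CPM in basal and 789 and 757 CPM in sebaceous cells, ratios of 3.05 and 2.59, and Atp5g1 557 and 562 against 1360 and 1100 CPM, ratios of 2.44 and 1.96, while Atp5g2 measured 774 and 820 against 852 and 904 CPM. In suprabasal, scale and hedgehog-high cells the share of Atp5g2 stayed between 44.1% and 54.2%.

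Because these genes make the same protein but differed in their levels across classes, their promoters are shown, with the pair Cox6b1 and Cox6b2 beside them. Each line gives the 250 bases before the annotated start, 5′ to 3′ on the gene's own strand, which is the minus strand for all 5, from RefSeq promoters on GRCm38.p6. The spans are chr11:96075632-96075881 for Atp5g1, chr15:102671048-102671297 for Atp5g2, chr2:73911327-73911576 for Atp5g3, chr7:30626115-30626364 for Cox6b1 and chr7:4753095-4753344 for Cox6b2.
Atp5g1: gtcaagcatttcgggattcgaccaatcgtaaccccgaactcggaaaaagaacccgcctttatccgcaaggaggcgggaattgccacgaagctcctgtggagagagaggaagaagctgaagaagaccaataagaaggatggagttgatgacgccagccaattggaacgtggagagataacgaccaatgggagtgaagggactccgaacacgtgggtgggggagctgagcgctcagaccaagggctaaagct
Atp5g2: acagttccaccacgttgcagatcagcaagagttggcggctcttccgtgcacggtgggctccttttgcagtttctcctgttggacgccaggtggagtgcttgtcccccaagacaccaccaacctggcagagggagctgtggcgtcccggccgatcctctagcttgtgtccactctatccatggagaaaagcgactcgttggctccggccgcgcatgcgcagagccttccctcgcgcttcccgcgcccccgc
Atp5g3: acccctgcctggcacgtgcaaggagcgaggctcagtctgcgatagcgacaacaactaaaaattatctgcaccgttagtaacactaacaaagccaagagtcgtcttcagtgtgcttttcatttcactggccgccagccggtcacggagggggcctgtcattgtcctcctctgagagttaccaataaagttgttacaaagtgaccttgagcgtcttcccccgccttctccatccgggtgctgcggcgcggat
Cox6b1: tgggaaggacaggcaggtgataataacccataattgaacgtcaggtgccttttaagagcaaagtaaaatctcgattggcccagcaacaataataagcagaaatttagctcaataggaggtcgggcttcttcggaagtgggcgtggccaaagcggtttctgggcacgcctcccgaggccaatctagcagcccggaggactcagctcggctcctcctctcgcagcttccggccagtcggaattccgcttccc
Cox6b2: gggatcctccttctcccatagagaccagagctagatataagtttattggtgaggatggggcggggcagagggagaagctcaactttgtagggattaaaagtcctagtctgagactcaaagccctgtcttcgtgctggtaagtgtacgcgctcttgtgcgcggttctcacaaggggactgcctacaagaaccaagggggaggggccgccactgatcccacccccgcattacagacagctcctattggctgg

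GC content of these stretches was 53.6% for Atp5g1, 62.8% for Atp5g2, 54.0% for Atp5g3, 54.0% for Cox6b1 and 54.8% for Cox6b2. CG dinucleotides numbered 15, 19 and 15 in the Atp5g genes in that order and 14 in Cox6b1, but 8 in Cox6b2. Promoters were found for 75 of 88 members, 2 of them under a newer symbol than the files use. For 53 of the 75 the start lay within 50 bases of a start in the GENCODE annotation. For Atp5g2 the nearest principal GENCODE start lay 80 bases away, and the gene there begins further upstream, at 102672352. Over the 300 bases from 250 before to 50 after the start, the median member promoter held 20 CG dinucleotides at 58.7% GC, and the median of 27025 promoters in the table held 7 at 52.7%.

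The study asked what Survivin overexpression does to SmoM2 skin, and across keratinocytes the members differed little between the libraries. Their sum was 25062 CPM of control and 23552 of GOF keratinocytes, a ratio of 0.940 (0.938 to 0.941). Of 88 members 0 were higher in the GOF library by at least 5 to 4 and 4 lower, where 19.4% and 11.2% of 14595 genes were. The 4 were Cox7b, Cox6b2, Ndufa4l2 and Cox7a1, all of complex IV. The shares of all genes were not matched to the members' depth. The median member lay at -0.06 on the log2 scale and the median of all genes at 0.08. The quartiles of member ratios ran from 0.923 to 1.01, with 25 of 87 above 1. By complex the sum was 0.984 of the control level for complex I, 1.03 for complex II, 0.936 for complex III, 0.874 for complex IV and 0.939 for complex V. In male-called cells, which are most of the control library and a minority of the GOF library, the ratio of the member sum was 1.004. Their class mix differed, with 113 of 229 sebaceous but 445 of 1665 basal GOF cells called male. In the control library 259 of 309 sebaceous and 1065 of 1566 basal cells were. The part of class mix in this ratio was not tested.

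The libraries differed in composition. Clusters without a class name that were found almost only in the control library, called control-only, held 1989 cells and 27806 CPM of members. The basal cluster of 1532 control and 47 GOF cells had a name and was not among them. Without the control-only clusters the ratio was 0.971. Of 88 members 1 was higher and 3 lower, beside 15.6% and 11.2% of all genes. The member then higher was Ndufaf5, at 1.28, and Ndufa4l2, at 0.805, no longer counted as lower. A cluster of this kind, of 82 cells and led by the hair follicle keratins Krt71 and Krt75 with Krt36 also among its leading genes, was the control point with low mitochondrial transcripts, at 34973 CPM of members and 12810 CPM of mitochondrially encoded subunits.

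By class the GOF to control ratio of the member sum was 1.04 (1.03 to 1.04) in basal, 0.957 (0.948 to 0.965) in suprabasal, 0.977 (0.966 to 0.988) in scale, 0.867 (0.863 to 0.872) in sebaceous and 0.970 (0.966 to 0.975) in hedgehog-high cells. The sebaceous ratio was 0.956 within the larger sebaceous cluster and 0.978 within the smaller, which held 51 of 309 control and 129 of 229 GOF cells. With the members left in the clustering the sebaceous ratio was 1.07, and at a finer clustering 1.15. Those values do not rest on the same cells. The control class then held 712 and 780 cells, of which 308 and 309 belonged to the sebaceous class used elsewhere. The GOF class held 231 cells in both settings, 229 of them shared. Over 13 clusters with at least 100 cells in each library, the ratio ran from 0.923 to 1.03, with 3 intervals wholly above 1 and 9 wholly below it. Mitochondrially encoded subunits were at 0.894 of the control level in GOF keratinocytes, and at 0.849 without the control-only clusters. In the 5 classes they were between 0.795 and 0.856.

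Cox7b was lower in the GOF library in each of the 5 classes. Its GOF to control ratio was 0.541 (0.533 to 0.548) in keratinocytes, 0.637 in basal, 0.555 in suprabasal, 0.575 in scale, 0.425 in sebaceous and 0.626 in hedgehog-high cells. Within the larger and the smaller sebaceous cluster, whose shares differed between the libraries, it was 0.519 (0.5005 to 0.538) and 0.543 (0.502 to 0.587). Cox7b was lower in the GOF library outside keratinocytes too, with ratios of 0.657 (0.579 to 0.746) in melanocytes and 0.527 (0.443 to 0.627) in immune cells. Whether a strain difference or the counting of this gene's reads bears on these values was not tested. The gene lies on the X chromosome (106015700 to 106022450), and the libraries differed in the sex of their cells. In male-called cells alone Cox7b stood at 618 CPM for control and 368 for GOF, a ratio of 0.595 (0.583 to 0.608). The other X-linked members did not share this difference, with ratios of 0.919 (0.899 to 0.939) for Ndufa1 and 0.967 (0.953 to 0.982) for Ndufb11 in all keratinocytes, and 0.968 and 0.995 in male-called cells. Cox6b2 measured 11.1 and 6.07 CPM in keratinocytes, a ratio of 0.547 (0.494 to 0.604), but within hedgehog-high cells its ratio was 0.923 (0.779 to 1.09). That class value joins clusters of unequal share in the libraries. The Dio2 hedgehog-high cluster had 9.72 and 7.17 CPM and the Lef1 one 25.2 and 19.95. In clusters with little Gli1 it was also lower in GOF cells, at 11.6 and 3.31 CPM in the Ntrk2 cluster. The upper follicle cluster had 5.77 and 1.72 CPM. It was higher in the larger sebaceous cluster, at 1.11 and 2.05 CPM, from 5 and 6 UMIs. Gli1 itself measured 29.3 and 18.8 CPM in keratinocytes of the libraries. Ndufa4l2 was at 0.771 (0.759 to 0.782) in keratinocytes, near 1 in basal and scale cells (0.977 and 0.962), and at 0.622 in suprabasal, 0.494 in sebaceous and 0.556 in hedgehog-high cells. Within single clusters it was 0.323 (0.219 to 0.464) in the larger and 0.575 (0.374 to 0.903) in the smaller sebaceous cluster. It was 0.853 (0.811 to 0.898) in the Dio2 and 0.735 (0.680 to 0.794) in the Lef1 hedgehog-high cluster. The basal value joins clusters that are each nearly of 1 library. Ndufa4l2 was at 0.956 (0.829 to 1.10) in the basal cluster of 1532 control and 47 GOF cells. In the basal cluster of 34 control and 1618 GOF cells it was at 1.40 (1.18 to 1.67). In all keratinocytes, members toward the higher end, all short of the 5 to 4 mark, were Ndufaf5 at 1.22, Ndufaf2 at 1.21, Ndufa11 at 1.12 and Sdhb at 1.09. Below 1 but also within the mark were Ndufa13 at 0.841, Atp5d at 0.846 and Uqcrh at 0.859.

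**Figure D5:**
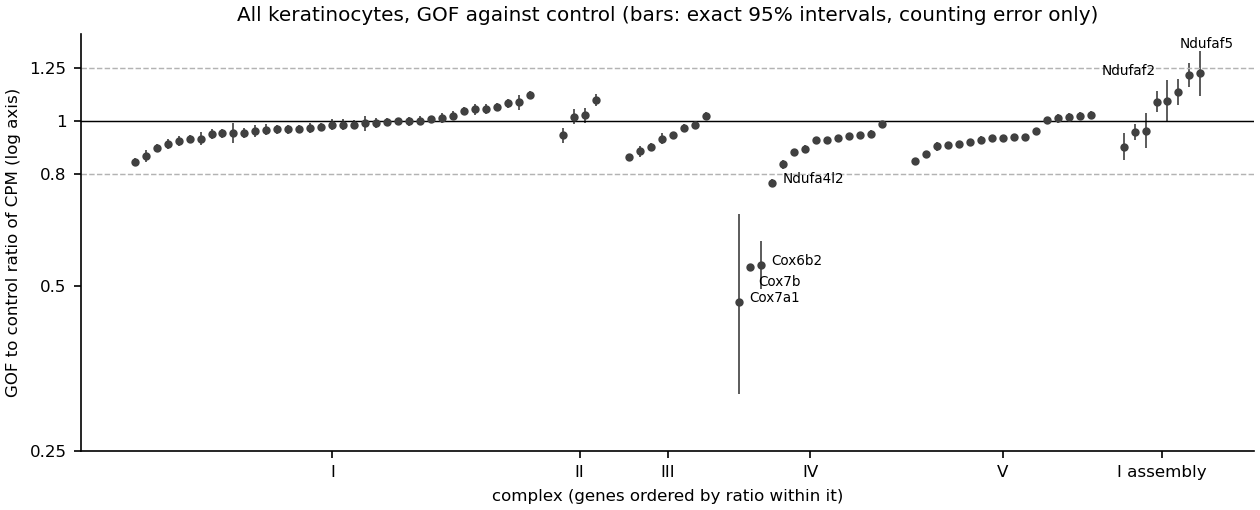
GOF to control ratio of CPM in all keratinocytes (y axis, log scale) for the 88 members, ordered within each complex (x axis), with exact 95% intervals and dashed lines at the 5 to 4 and 4 to 5 marks. All points except Cox7b, Cox6b2, Cox7a1 and Ndufa4l2 lie between the dashed lines, and complex I and complex V scatter closely around and just under 1.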

How the data were processed

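Epidermal cells of 1 library per genotype were profiled with 10x Chromium 3′ chemistry. The values are raw UMI counts per gene and barcode, deposited by the authors. Cell Ranger 6.1.1, R 4.3.0, Seurat 4.2.0 and mm10 are named in the submitters' processing notes, and Cell Ranger 6.1.1 also in the matrix header. The sources used here do not state whether introns or multi-mapped reads were counted, and subunit genes with processed copies elsewhere could lose reads to them.

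The members and gene lists were chosen with earlier results of these data known. Cells with at least 1500 genes and at most 10% mitochondrial UMIs were kept, 10993 of 24844 control and 6922 of 11438 GOF barcodes. The stated control cell number is 8046. Doublets were scored with scanpy 1.11.5 (scrublet), whose automatic threshold marked 0 cells, so about the top 6% of scores (700 and 428 cells) were removed. Clusters used 2000 variable genes, 30 components, 15 neighbours and Leiden resolution 1, without the members, mitochondrial, ribosomal, sex-linked marker genes or Birc5, and without integration. A cluster took a class name when at least 5 markers exceeded 2-fold and its top 10 genes included markers, a rule set after the clusters were seen.

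UMIs were summed by class and library and divided by all UMIs of that sum (CPM), over 101019230 control and 101131106 GOF UMIs in all. A gene was measured in a class comparison with at least 50 UMIs in each library. No share of all genes was matched to the members' depth. No test was possible. Named members are the 3 with the largest ratios in each direction per complex among those with at least 200 UMIs, the isoform sets and the X-linked members; others were chosen after their values were seen. Alternatives covered scaling, filters, doublets, sex, weighting, clustering and fold. The ratio functions were tested on simulated data. numpy 2.4.6 and scipy 1.17.1 under Python 3.11.15 were used. The values of 1 complex I member are not reported here, though it stays in sums and counts.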

Additional observations from a re-analysis of the deposited data

Results flagged for a closer look

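The GOF to control ratio of the summed members pointed in different directions by class. It was 1.0351 in basal cells and below 1 in the other classes, at 0.95673 in suprabasal, 0.97692 in scale, 0.86746 in sebaceous and 0.97032 in hedgehog-high cells. With 1 library per genotype each class has 1 value per genotype, so the difference between classes was not tested. The basal value compares cells of different clusters, and it was 0.960 with median-of-ratios scaling and 0.983 with totals that leave out keratin, ribosomal protein and mitochondrial UMIs. Among male-called cells the ratio was above 1 in basal, suprabasal, scale and hedgehog-high cells, with only 24 GOF cells in the scale class. The sebaceous value joins clusters of unequal share in the libraries, and within each it was 0.956 and 0.978.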

How the results depend on the processing

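Where 2 values stand together they are the control and the GOF library. Under every alternative run the class sums stayed on their side of the basal sum, at 1.65 to 2.58 and 1.57 to 2.10 in sebaceous cells and 0.834 to 0.915 and 0.759 to 0.902 in suprabasal cells. Scale cells lay at 0.810 to 0.896 and 0.740 to 0.924, and hedgehog-high cells at 0.778 to 0.994 and 0.732 to 0.927. The GOF to control ratio of the sum crossed 1 in every class and in keratinocytes under at least 1 alternative, and the causes were not tested. At Leiden resolution 2 no scale class formed and the sebaceous class grew to 780 control cells. With the members left in the clustering it grew to 712 control cells, while the GOF sebaceous class held 231 cells in both settings. The choice of single clusters and of dropping control-only clusters was made after seeing the data. Values that moved beyond their counting interval follow. Counts of members are among them. Except without the control-only clusters, no share of all genes was computed under these settings. Such counts therefore cannot be read as a trait of the members. With median-of-ratios scaling, the GOF to control ratio was 0.897 in keratinocytes, 0.960 in basal cells, 0.998 in scale cells, 0.727 in sebaceous cells and 0.927 in hedgehog-high cells. Against basal cells the classes gave 0.897 and 0.895 in suprabasal cells, 0.886 and 0.924 in scale cells, 2.58 in control sebaceous cells and 0.778 and 0.732 in hedgehog-high cells. Of the members, 10 were lower in suprabasal cells, 11 were lower in scale cells, 1 was higher in hedgehog-high cells and 35 were lower in hedgehog-high cells. GOF to control ratios with totals that leave out keratin, ribosomal protein and mitochondrial UMIs were 0.915 in keratinocytes, 0.983 in basal cells, 0.931 in suprabasal cells, 0.963 in scale cells and 0.941 in hedgehog-high cells. The classes had 0.834 and 0.790 in suprabasal cells, 0.810 and 0.793 in scale cells, 1.92 and 1.70 in sebaceous cells and 0.919 and 0.880 in hedgehog-high cells of the basal sum. With at most 5% mitochondrial UMIs, GOF stood to control at 0.925 in keratinocytes, 1.03 in basal cells, 0.802 in sebaceous cells and 0.939 in hedgehog-high cells. The sebaceous class then held only 15 control and 52 GOF cells. Set against basal cells, the sums were 0.908 and 0.839 in suprabasal cells, 0.896 and 0.853 in scale cells, 2.01 and 1.57 in sebaceous cells and 0.989 and 0.904 in hedgehog-high cells. The GOF library, with up to 20% mitochondrial UMIs, stood at 0.944 in suprabasal cells, 0.940 in scale cells, 0.881 in sebaceous cells and 0.979 in hedgehog-high cells of the control one. Relative to basal cells the sums were 0.835 and 0.758 in suprabasal cells, 0.818 and 0.740 in scale cells, 1.86 in GOF sebaceous cells and 0.916 in GOF hedgehog-high cells. With doublets kept, the GOF to control ratio was 0.947 in keratinocytes and 0.979 in hedgehog-high cells. Against basal cells the classes gave 2.15 and 1.81 in sebaceous cells and 0.917 in GOF hedgehog-high cells. GOF to control ratios with at least 2500 genes per cell were 0.921 in keratinocytes, 1.06 in basal cells, 0.947 in suprabasal cells and 0.981 in hedgehog-high cells. The classes had 0.915 in control suprabasal cells, 0.892 and 0.826 in scale cells, 2.27 in control sebaceous cells and 0.984 in control hedgehog-high cells of the basal sum. In male-called cells, GOF stood to control at 1.004 in keratinocytes, 1.05 in basal cells, 1.02 in suprabasal cells, 1.08 in scale cells, 0.925 in sebaceous cells and 1.001 in hedgehog-high cells. The GOF scale class then held only 24 cells. Set against basal cells, the sums were 0.856 in GOF suprabasal cells, 0.889 in GOF scale cells, 2.21 and 1.95 in sebaceous cells and 0.921 in GOF hedgehog-high cells. Of the members, 2 were higher in GOF than in control keratinocytes, 0 were higher in scale cells and 5 were higher in hedgehog-high cells. The GOF library, at Leiden resolution 2, stood at 1.01 in suprabasal cells, 1.15 in sebaceous cells and 0.961 in hedgehog-high cells of the control one. Relative to basal cells the sums were 0.908 and 0.889 in suprabasal cells, 1.65 in control sebaceous cells and 0.902 in GOF hedgehog-high cells. With members left in the clustering, the GOF to control ratio was 1.02 in suprabasal cells, 0.957 in scale cells and 1.07 in sebaceous cells. Against basal cells the classes gave 0.913 and 0.902 in suprabasal cells, 0.842 and 0.781 in scale cells and 1.76 in control sebaceous cells. GOF to control ratios with cells weighted equally were 0.954 in keratinocytes, 0.945 in scale cells, 0.877 in sebaceous cells and 0.981 in hedgehog-high cells. The classes had 0.858 and 0.794 in suprabasal cells, 0.841 and 0.769 in scale cells, 2.17 in control sebaceous cells and 0.977 and 0.927 in hedgehog-high cells of the basal sum. Without the control-only clusters, GOF stood to control at 0.971 in keratinocytes. Of the members, 1 was higher in GOF than in control keratinocytes. In the larger sebaceous cluster alone, GOF stood to control at 0.956 and the sums were 2.27 and 2.10 of the basal ones. In the smaller sebaceous cluster alone, GOF stood to control at 0.978 and the sums were 1.67 and 1.58 of the basal ones. In the Dio2 hedgehog-high cluster alone, GOF stood to control at 0.962 and the sums were 0.994 and 0.924 of the basal ones. In the Lef1 hedgehog-high cluster alone, GOF stood to control at 0.984 and the sums were 0.953 and 0.906 of the basal ones. At 1.5-fold, 3 were lower in suprabasal cells, 0 were higher in scale cells, 6 were lower in scale cells, 1 was higher in hedgehog-high cells and 1 was lower in hedgehog-high cells. No paired analysis was possible because there was 1 library per genotype and no replicate numbers. No alternative left out a library, since that leaves no comparison. Depth limits Cox7a1 most, with 148 UMIs in all.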
